A study of Mus musculus with 56 samples.

Results

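The enrichment profile of astrocyte ribosomes was set against that of microglial ribosomes in the same tissue, the barrel cortex of mouse pups. Each profile is the log2 ratio of RNA pulled down with tagged ribosomes (bound) to RNA left behind (unbound), so a value of 1 is a doubling. The quantity described throughout is the astrocyte enrichment minus the microglial enrichment, called the difference of enrichment here. It is positive for a gene drawn more strongly by the astrocyte pulldown and negative for a gene drawn more strongly by the microglial one. It was computed from 18 of the 56 libraries of the series, all from the control cortex, after joining the astrocyte and microglial count tables by gene identifier.

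All pups were collected at postnatal day 5, which was 24 hours after the whiskers on the right side had been cauterised at day 4. The whisker lesion deprives the opposite barrel cortex of input, and the control cortex is the other hemisphere of lesioned pups. The astrocyte line, labelled Aldh1l1::eGFPL10a, gave 5 bound and 5 unbound control libraries, with 3 from females and 2 from males in each fraction. It carries the ribosomal protein L10a fused to EGFP under Aldh1l1 regulatory sequence, and received no tamoxifen. The microglial line, Cx3cr1CreErt2/+(Litt) Eef1a1LSL.eGFPL10a/+, gave 4 bound and 4 unbound control libraries from 3 mice, with 3 libraries from females and 1 from a male in each fraction. Here the same tag sits behind a stop cassette at Eef1a1 and is switched on by a tamoxifen-dependent Cre inserted into 1 Cx3cr1 allele, after 50 µg of tamoxifen daily from day 1 to day 3. The microglial pups therefore lack 1 intact copy of Cx3cr1, the receptor for the chemokine fractalkine. Microglial pieces are named here by the mouse number and side letter of their library (14R, 15R, 21L, 21R) and astrocyte pieces by number (AC_1 to AC_5), since the labels name no astrocyte animal.

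Cell type is one of several things that differ between the lines. Driver, tamoxifen, the count table and sequencing depth differ as well, and these cannot be told apart from cell type. Total counts were 15627083 to 28584281 in astrocyte bound, 10081228 to 24306936 in astrocyte unbound, 39937173 to 49690286 in microglial bound and 32772396 to 44442270 in microglial unbound libraries. Mitochondrial ribosomal RNA took 3.52% to 6.11% of unbound counts in the astrocyte line and 20.5% to 24.4% in the microglial line. The transcript of the tag, counted in the microglial table, had 226 to 295 counts in bound and 15 to 35 in unbound libraries. Pieces 21L and 21R came from 1 mouse, and 21L carries the control label although its side letter is L, the hemisphere opposite the cauterised whiskers. Piece 15R, the only male, stood above the other microglial pieces in the median enrichment of homeostatic microglial genes, though not for each gene. Counts without either piece are given below, and neither reversed the direction of any of the 123 genes named by rule that had a called difference.

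Astrocytes and microglia are the main non-neuronal partners of developing synapses. Astrocytes arise from radial glia in the cortex, clear glutamate and potassium, supply cholesterol and secrete proteins that promote synapses. Microglia arise from yolk sac precursors, depend on the receptor Csf1r and the transcription factor PU.1, and remove material by complement-tagged engulfment. Translating ribosome affinity purification reads messages attached to ribosomes of 1 cell type without sorting cells. RNA of all other cells still sticks to the beads to some degree, so a message is attributed by its enrichment over the unbound fraction, not by its presence. In these bulk samples fewer cells of a type and less RNA per cell cannot be told apart.

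PU.1, encoded by Spi1, binds a purine-rich core, and its published core GAGGAAGT was searched on either strand of RefSeq promoter windows (GRCm38.p6). The Ctss window ran from 250 bases before to 50 after the annotated start of the gene. Some windows sat differently against that annotation: the Mgst1 window began at 138140277, with the annotated gene start at 138140316. Of the 15 genes with the most negative difference among those drawn by microglia and not by astrocytes, 12 matched a window and 4 held the core. These are Ctss, C1qc, Spp1 and Cd53, which encode a lysosomal protease, a complement subunit, a secreted matrix protein and a leukocyte tetraspanin. They are shown because they hold the core, and the matched genes without it are not shown. None of the 9 matched genes at the astrocyte end held the core, which is near the share of 3.39% over all tested genes. The astrocyte-drawn Mgst1, a microsomal glutathione transferase, is shown as an example with 3 copies of TTGGCA. That is the short core of the nuclear factor I family, which acts in astrocyte development. TTGGCA was present in 14.2% of all tested genes, and at the astrocyte end Kcne1l held 1 copy as well. Each sequence reads 5′ to 3′ on the gene's strand, with the matched letters in capitals.
Ctss (chr3:95526536-95526835, plus strand): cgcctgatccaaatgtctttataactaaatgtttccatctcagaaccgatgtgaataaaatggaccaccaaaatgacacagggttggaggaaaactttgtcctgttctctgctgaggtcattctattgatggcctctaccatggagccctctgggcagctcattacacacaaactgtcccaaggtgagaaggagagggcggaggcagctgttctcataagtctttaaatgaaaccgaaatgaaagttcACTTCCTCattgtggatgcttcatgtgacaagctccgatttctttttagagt
C1qc (chr4:136892865-136893164, minus strand): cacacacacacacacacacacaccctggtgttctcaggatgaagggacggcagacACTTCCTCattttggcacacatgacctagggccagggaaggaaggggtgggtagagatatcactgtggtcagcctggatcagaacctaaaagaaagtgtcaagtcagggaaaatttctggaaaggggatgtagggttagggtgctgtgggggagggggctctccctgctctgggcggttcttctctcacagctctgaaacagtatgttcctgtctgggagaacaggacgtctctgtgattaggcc
Spp1 (chr5:104434861-104435160, plus strand): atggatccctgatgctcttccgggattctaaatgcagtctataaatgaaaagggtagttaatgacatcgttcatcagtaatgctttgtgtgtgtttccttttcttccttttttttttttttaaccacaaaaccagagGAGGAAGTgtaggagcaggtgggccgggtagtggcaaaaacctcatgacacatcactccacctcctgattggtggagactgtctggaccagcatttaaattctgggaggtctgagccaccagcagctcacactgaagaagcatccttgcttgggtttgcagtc
Cd53 (chr3:106790100-106790399, minus strand): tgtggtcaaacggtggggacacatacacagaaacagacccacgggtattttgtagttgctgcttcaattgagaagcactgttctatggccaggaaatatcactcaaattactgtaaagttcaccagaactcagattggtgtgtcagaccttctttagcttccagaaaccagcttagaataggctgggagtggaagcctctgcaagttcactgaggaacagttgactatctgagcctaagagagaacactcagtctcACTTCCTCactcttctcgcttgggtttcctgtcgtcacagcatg
Mgst1 (chr6:138140277-138140576, plus strand): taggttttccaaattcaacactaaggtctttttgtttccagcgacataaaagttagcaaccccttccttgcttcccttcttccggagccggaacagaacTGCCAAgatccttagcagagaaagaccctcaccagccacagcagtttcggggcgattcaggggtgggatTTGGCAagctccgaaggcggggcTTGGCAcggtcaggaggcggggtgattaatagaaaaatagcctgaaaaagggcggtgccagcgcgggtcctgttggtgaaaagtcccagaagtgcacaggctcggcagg

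In the Ctss window the core lay at bases 249 to 256, across the annotated start, on the opposite strand. It lay at bases 56 to 63 of C1qc and 257 to 264 of Cd53, both on the opposite strand, and at bases 138 to 145 of Spp1 on the gene's own strand. The 3 TTGGCA copies of Mgst1 lay at bases 100 to 105 on the opposite strand, and at 169 to 174 and 192 to 197 on the same strand. A match is a description of letters, and no binding was measured in these samples.

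Of the 4 marker genes, Aldh1l1 and Gfap were drawn more strongly by the astrocyte pulldown and Csf1r and C1qc by the microglial pulldown. Aldh1l1, a folate enzyme and the source of the astrocyte driver, lies on chromosome 6 (90486427 to 90600203, GRCm38). Its level was 42.8, 42.9, 40.7, 36.4 and 39.4 CPM (counts scaled to a common library size) in the astrocyte bound libraries and 11.6, 10.5, 11.2, 10.9 and 9.85 in the unbound ones. The microglial line held 10.6, 12.4, 8.57 and 10.7 CPM bound and 13.8, 12.3, 10.9 and 15.0 CPM unbound. The astrocyte bound libraries thus stood above all others, and the other 3 groups overlapped. Per piece, Aldh1l1 enrichment was 1.90 ± 0.116 (SD, n = 5) in the astrocyte line and -0.295 ± 0.218 (SD, n = 4) in the microglial line, and the 2 sets did not overlap. The fitted difference was 2.20 ± 0.15 (SE; adjusted p = 1.5e-10).

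Gfap, the intermediate filament of astrocytes (chromosome 11, 102887336 to 102900912), was enriched by both pulldowns. It had 138, 145, 148, 95.7 and 134 CPM in astrocyte bound libraries against 14.8 to 27.5 unbound. Microglial bound libraries held 55.0, 58.3, 62.5 and 65.2 CPM against 23.1 to 34.9 unbound, above their unbound range as well. Its difference was 1.41 ± 0.20 (SE; adjusted p = 8.1e-06), from enrichments of 2.53 and 1.13. The pieces did not overlap, with 2.40 to 2.69 in the astrocyte line and 0.90 to 1.33 in the microglial line.

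Csf1r, the receptor microglia need to survive (chromosome 18, 61100598 to 61132149), had 5.24, 5.49, 6.71, 5.57 and 5.55 CPM in astrocyte bound and 7.29 to 9.32 CPM in astrocyte unbound libraries. In the microglial line it had 33.5, 32.4, 24.6 and 30.0 CPM bound and 3.91 to 5.59 CPM unbound. Within its own line, every astrocyte bound library lay below every unbound one, and every microglial bound library lay above every unbound one. The difference was -3.25 ± 0.17 (SE; adjusted p = 6.0e-12). C1qc, a chain of the complement starter C1q (chromosome 4, 136889804 to 136893065), had 37.4, 36.9, 22.8 and 28.5 CPM in microglial bound libraries and 1.46 to 3.64 CPM in astrocyte bound ones. Its difference was -3.85 ± 0.28 (SE; adjusted p = 5.7e-10). In an exact two-sided permutation test of the 5 astrocyte against the 4 microglial pieces, each of the 4 markers reached p = 0.007937, the smallest value that 5 against 4 can give. Csf1r and C1qc were enriched in the microglial line alone and Aldh1l1 in the astrocyte line alone, while Gfap was enriched in both.

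**Figure D1:**
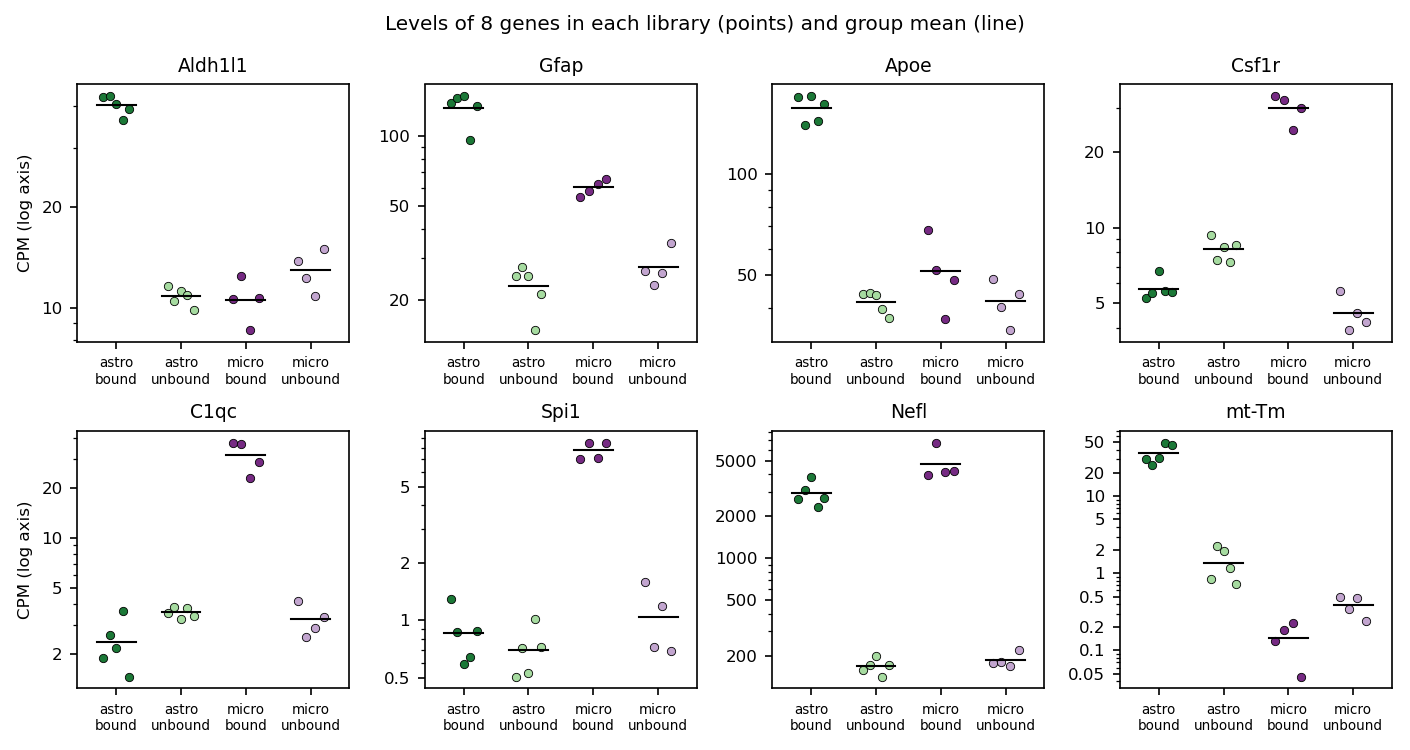
CPM (log axis) in each of the 18 control libraries for 8 genes, with 4 groups per panel (astrocyte bound and unbound, microglial bound and unbound) and a line at each group mean. Aldh1l1 stands out in astrocyte bound libraries, at 36.4 to 42.9 CPM, and Csf1r in microglial bound ones, at 24.6 to 33.5 CPM, while Nefl is high in the bound libraries of both lines and mt-Tm is near 0 in the whole microglial table.

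Across all genes, 20059 of 43902 shared by both tables had enough counts to test. The difference of enrichment was called (adjusted p under 0.05) in the astrocyte direction for 2876 genes, 14.3% of those tested, and in the microglial direction for 3059, 15.3%, together 29.6%. The share of calls in the astrocyte direction was 48.5%, and it depended on scaling: it was 28% when libraries were scaled by their totals, 43% when the 2 tables were scaled separately, and 40% without mitochondrially encoded genes and the tag. Enrichment was called for 4669 genes in the astrocyte line (23.3%) and 4962 in the microglial line (24.7%). Depletion was called for 3544 (17.7%) and 4803 (23.9%). A gene is named astrocyte-drawn where its difference was called, astrocyte enrichment was called and microglial enrichment was not. By that rule 1136 genes (5.66%) were astrocyte-drawn and 1490 (7.43%), by its mirror image, microglia-drawn.

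The directions differed in size as well as in number. A difference of at least 1 on the log2 scale was present in 633 astrocyte-drawn and 271 microglia-drawn genes, and of at least 2 in 207 and 155. A larger class than either, 2570 genes (12.8%), was enriched by both pulldowns, and 2111 (10.5%) were depleted by both. Opposite calls, enriched in one line and depleted in the other, were made for 427 genes in the astrocyte direction and 255 in the microglial direction. Across the 20059 genes the enrichments correlated with Pearson's r = 0.438 and Spearman's rho = 0.45, a description over genes that share libraries, scaling and length. The median difference over all genes was 0.06, between a 5th percentile of -0.78 and a 95th of 1.65. Without piece 15R the counts were 2550 and 2748 for the difference and 1086 and 1318 for the drawn genes. Without 21L they were 2590 and 2629, and 1050 and 1224. With 21L and 21R, which share a mouse, summed they were 2722 and 3010, and 1122 and 1395.

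**Figure D2:**
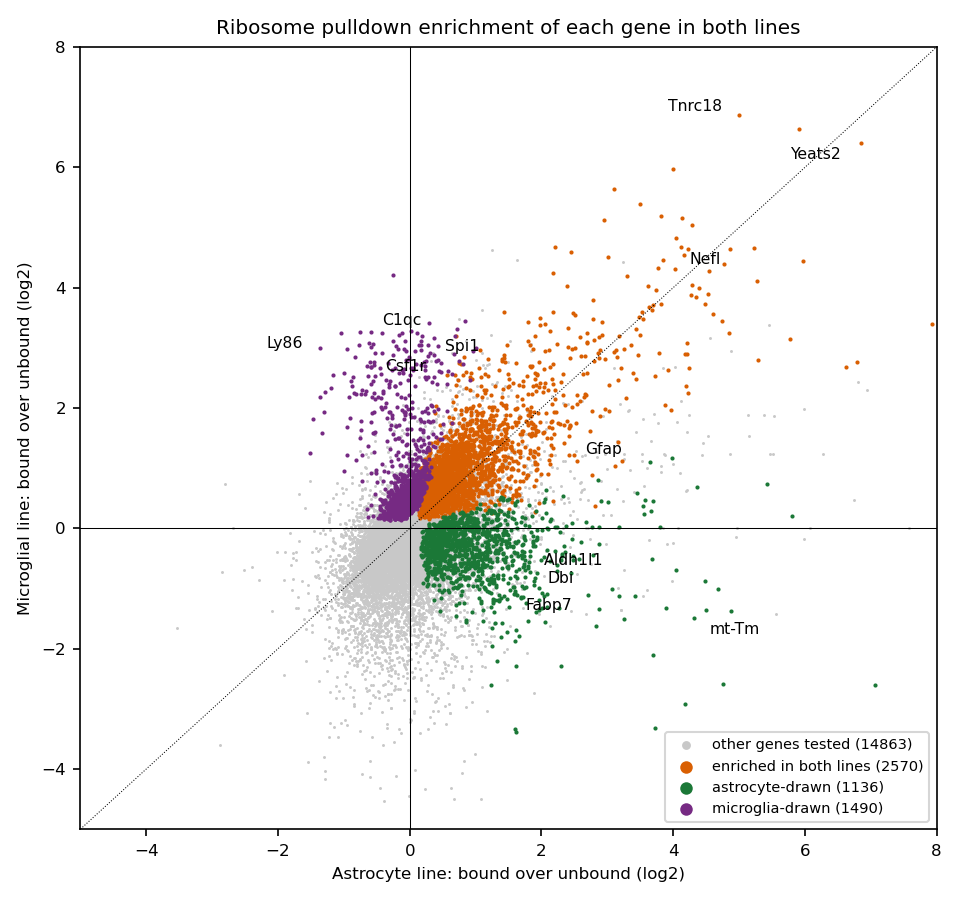
Microglial enrichment (y axis, log2) against astrocyte enrichment (x axis, log2) for the genes tested, with 2 beyond the axes. Green marks 1136 astrocyte-drawn genes, purple 1490 microglia-drawn genes, orange 2570 enriched in both and grey the rest, and the dotted line is equality; many genes lie along that line at the upper right.

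Counts within gene lists are to be read against the 14.3% and 15.3% of all genes called in the astrocyte and microglial directions. Classical astrocyte genes made up one pole of the comparison. Of 30 astrocyte identity genes, 29 differed in the astrocyte direction, none in the microglial direction, and Gjb6 did not pass. Their median enrichment was 1.16 in the astrocyte line and -0.27 in the microglial line, with a median difference of 1.46 against 0.06 over all genes. Their summed level was 3677 to 4426 CPM in astrocyte bound and 1999 to 2143 CPM in astrocyte unbound libraries, and 1279 to 1378 and 1487 to 1625 CPM in the microglial line. Slc1a3, a glutamate transporter, had 352, 310, 325, 324 and 342 CPM in astrocyte bound libraries and 145 to 168 CPM in astrocyte unbound ones. In the microglial line it had 52.3, 40.7, 42.3 and 45.1 CPM bound and 80.2 to 98.0 CPM unbound, so the microglial pulldown held less of it than the tissue left behind. Its difference was 2.09 ± 0.10 (SE), that of Aldoc, a glycolytic aldolase, 2.46 ± 0.11, and that of Mlc1, an astrocyte end-foot protein, 2.34 ± 0.14.

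Among astrocyte-drawn genes with a mean log2 CPM of at least 3 in astrocyte bound libraries, 9 of the 15 largest differences were in nuclear genes and 6 in mitochondrially encoded ones. Dbi, an acyl-CoA binding protein whose peptides act on GABA-A receptors (chromosome 1, 120113280 to 120121078), had 499, 503, 593, 532 and 593 CPM in astrocyte bound libraries. It had 122 to 163 CPM in astrocyte unbound, 120 to 147 CPM in microglial bound and 213 to 288 CPM in microglial unbound libraries. Its bound and unbound ranges were apart in both lines and in opposite directions, and the difference was 2.73 ± 0.13 (SE; adjusted p = 1.7e-12). Fabp7, the brain fatty acid binding protein of radial glia and astrocytes (chromosome 10, 57784881 to 57788450), had 1682 to 2105 CPM astrocyte bound against 552 to 644 unbound. The microglial line showed the reverse order, with 460 to 544 CPM bound against 849 to 1200 unbound, and the difference was 2.64 ± 0.12 (SE; adjusted p = 9.0e-13). Lcat, which esterifies cholesterol on lipoproteins, differed by 2.96, Kcne1l, a potassium channel subunit, by 2.75, Htra1, a secreted serine protease, by 2.68, Mgst1 by 2.65, the calcium binding S100a1 by 2.55, Cst3, the secreted protease inhibitor cystatin C, by 2.53 and the peroxidase Gpx8 by 2.51.

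Astrocyte supply and clearance genes moved in the same direction in most cases. Among 23 secreted and matrix genes, 15 differed in the astrocyte direction and 8 did not pass, with a median of 1.11. Mfge8, an eat-me bridging protein, differed by 2.27, Clu, the lipoprotein clusterin, by 1.93, and Sparcl1, a synapse-promoting matrix protein, by 1.84. Of 18 genes for glutamate and potassium handling, 14 differed in the astrocyte direction and 4 did not pass. They include the water channel Aqp4 (1.68), the gap junction gene Gja1 (2.01), the GABA transporter Slc6a11 (1.11) and the glutamate transporter Slc1a2 (0.94). Sterol and fatty acid synthesis was mixed: 11 of 22 genes differed in the astrocyte direction, 1 in the microglial direction and 10 did not pass. Fads2 (1.35) and Fads1 (1.04), both desaturases, were enriched by astrocytes, but Fdft1, which makes squalene, was depleted in both lines (-0.49 and -1.44) and differed by 0.96 because it was depleted less in astrocytes.

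Most called transcription factors of astrocytes and their progenitors lay in the astrocyte direction. Of 22 measured, 12 differed in the astrocyte direction, 3 in the microglial direction and 7 did not pass. The shares over all genes tested were 14.3% and 15.3%, so the microglial calls were near their share. Id3, an inhibitor of basic helix-loop-helix factors, had 50.6, 46.4, 56.4, 44.8 and 47.9 CPM in astrocyte bound and 11.4 to 14.6 CPM in astrocyte unbound libraries. It had 15.1 to 17.0 CPM in microglial bound and 16.1 to 20.8 CPM in microglial unbound libraries, close to each other, and differed by 2.12 ± 0.13 (SE). Id1 differed by 2.45, Rfx4 by 1.37, Sox2 by 1.21 and Sox9, a glial fate factor, by 0.89. Pax6, Hes1, Hes5, Sox2 and Hopx of the radial glia and progenitor list are also in this transcription factor list. Ptprz1, Tnc and Mfge8 are also in the secreted and matrix list. Of the 15 radial glia and progenitor genes, 10 differed in the astrocyte direction and 5 did not pass, with Hes5, a Notch target, at 1.72. Their summed level was 3339 to 3807 CPM in astrocyte bound libraries, 1472 to 1536 in the unbound ones and 1307 to 1762 over the microglial libraries, and their part in the astrocyte results was not tested.

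Homeostatic microglial genes formed the other pole. Of 29 genes, 26 differed in the microglial direction, none in the astrocyte direction, and Siglech, C1qa and Slc2a5 did not pass. All 29 were called enriched in the microglial line and 2 in the astrocyte line, where the list's median enrichment was -0.54 against 2.55 in the microglial line. The median difference was -2.91, and the list's summed level was 439 to 641 CPM in microglial bound and 85.4 to 113 CPM in microglial unbound libraries. The astrocyte line held 116 to 124 CPM bound and 118 to 124 CPM unbound, nearly the same summed level in both fractions. Ctss, the lysosomal protease cathepsin S, had 61.7, 67.2, 41.0 and 49.9 CPM in microglial bound, 5.02 to 6.13 CPM in microglial unbound, 1.57 to 3.65 CPM in astrocyte bound and 4.72 to 7.09 CPM in astrocyte unbound libraries. Its difference was -4.29 ± 0.26 (SE), next to Ly86, a partner of the Toll-like receptor relative CD180, at -4.36 ± 0.28, the most negative of the genes named. P2ry12, the ADP receptor of ramified microglia, had 19.9, 17.8, 10.96 and 12.8 CPM in microglial bound libraries against 2.00 to 3.78 unbound, and 3.64 to 4.84 CPM in astrocyte bound against 8.54 to 10.6 unbound. Microglial bound libraries were above all others and astrocyte bound libraries below all astrocyte unbound ones, and the difference was -3.72 ± 0.26 (SE).

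The other genes at the microglial end were Aif1 (-3.82), which encodes IBA1, C1qb (-3.70), the oxidase subunit Ncf1 (-3.61), Cd52 (-3.60), Spp1 (-3.58), the Fc receptor Fcgr3 (-3.54), Cd53 (-3.53), Tyrobp (-3.38), an adaptor of Trem2, lysozyme Lyz2 (-3.31) and Fcrls (-3.27). Cd52 reached only 0 to 9 counts in each astrocyte library, and exons of P2ry12, Ncf1, Cd52, Spp1, Csf1r and Cx3cr1 overlap another gene, so their counts may be shared. Tmem119, a microglial surface protein, differed by -2.85.

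Myeloid transcription factors followed the microglial genes. Of 17 measured, 15 differed in the microglial direction and 2 did not pass, with a median of -0.78. Spi1 (chromosome 2, 91082390 to 91115756) had 7.02, 8.53, 7.05 and 8.51 CPM in microglial bound libraries and 0.688 to 1.59 CPM in microglial unbound ones. Astrocyte bound and unbound libraries overlapped at 0.589 to 1.30 and 0.508 to 1.02 CPM, from 8 to 42 counts each. The difference of Spi1 was -2.51 ± 0.38 (SE; adjusted p = 2.7e-05). Runx1 differed by -2.23, Irf8 by -2.15, both needed for microglial development, and Maf, which both lines express, by -0.78.

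Lists that carry a microglial name did not all go one way. Of 17 measured activation and axon tract genes, 9 differed in the microglial direction and 3 in the astrocyte direction. Those 3 were Fabp5 (1.64), a fatty acid carrier, Cd9 (1.21), a tetraspanin, and Cd63 (1.30), an endosomal tetraspanin, each enriched in the astrocyte line and not called enriched or called depleted in the microglial line. Fabp5 had 103 to 118 CPM in astrocyte bound and 76.7 to 83.6 CPM in unbound libraries, but 46.4 to 56.7 CPM in microglial bound and 105 to 126 CPM in unbound libraries. Of 24 lysosomal genes, 14 differed in the microglial direction and 4 in the astrocyte direction. Ctsd (-1.54) and Ctsz (-1.52), both cathepsins, differed in the microglial direction, and Lamp1 (0.86), an abundant lysosomal membrane protein, and Npc1 (0.44), a cholesterol exporter, in the astrocyte direction. Lamp1 had 194 to 223 CPM in astrocyte bound libraries, 117 to 128 in the unbound ones and 100 to 124 over all microglial libraries, whose fractions overlapped.

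Border macrophages also use Cx3cr1 and so could carry the tag. Of 14 measured genes of border macrophages and monocytes, 5 differed in the microglial direction, 4 in the astrocyte direction and 5 did not pass. Mrc1, the mannose receptor, differed by -2.39 and Stab1, a scavenger receptor, by -1.61. The 4 in the astrocyte direction include the antigen presentation genes H2-Aa (4.58), Cd74 (1.56) and H2-Ab1 (1.13). H2-Aa had 1.37, 2.12, 1.12, 1.38 and 0.993 CPM in astrocyte bound libraries and 0.181 to 0.359 CPM in unbound ones, against 0 to 0.157 CPM in microglial bound libraries. These are 17 to 44 counts in each astrocyte bound library and 0 to 6 in each microglial bound library. The list's summed level was 18.7 to 58.0 CPM in microglial bound and 19.6 to 26.7 CPM in astrocyte bound libraries, and the part of border macrophages in the microglial results was not tested.

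**Figure D3:**
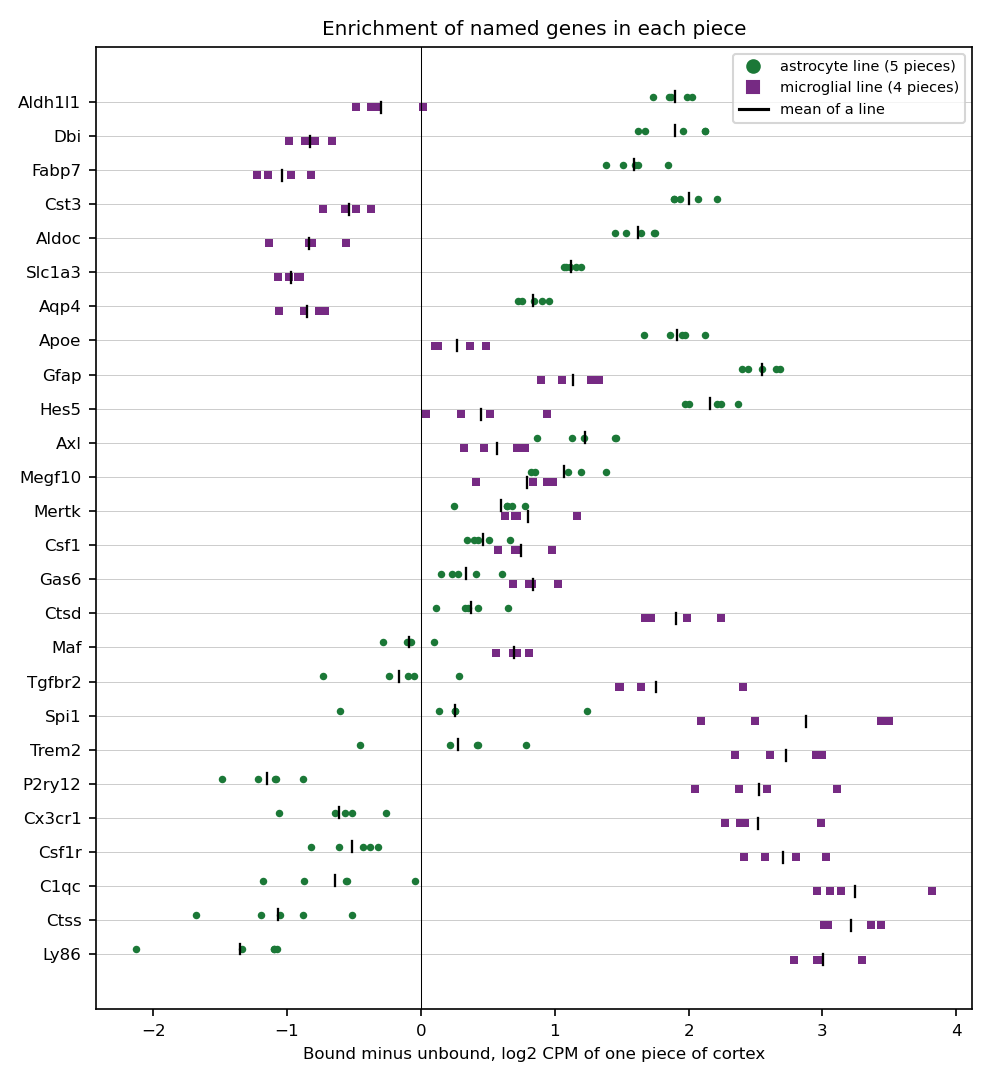
Enrichment (log2 bound minus unbound) of 26 genes in each of the 5 astrocyte pieces (green circles) and 4 microglial pieces (purple squares), with a tick at each mean. Aldh1l1 lies between 1.73 and 2.02 in astrocyte pieces and -0.48 and 0.02 in microglial ones, and the order is the reverse for Csf1r, at -0.82 to -0.32 and 2.41 to 3.03.

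Complement and engulfment genes with a called difference lay more often in the microglial direction. Of 28 genes, 13 differed in the microglial direction, 4 in the astrocyte direction and 11 did not pass, and 12 were enriched by both pulldowns. C1qb, C1qc and Trem2 (-2.37), a lipid receptor of microglia, were on the microglial side and Mfge8 on the astrocyte side. Trem2 had 3.78 to 6.97 CPM in microglial bound libraries and 0.409 to 1.30 CPM in all other groups, which did not separate. Among the TAM receptors and their bridging ligands, Axl was higher in the astrocyte pulldown (0.68, adjusted p = 0.0067) from 19.1 to 27.9 CPM bound against 8.70 to 10.7 unbound. Gas6 (-0.50) and Pros1 (-0.80), both ligands of these receptors, were higher in the microglial pulldown, though Gas6 was enriched in both lines (0.34 and 0.84). Mertk and Megf10, receptors through which astrocytes take up synapses, were enriched in both, at 0.60 and 0.82 for Mertk and 1.08 and 0.82 for Megf10. Their differences of -0.22 and 0.26 did not pass (adjusted p = 0.39 and 0.26). C4b, a complement component, was 0.71 higher in the astrocyte line with an adjusted p of 0.055, although its pieces did not overlap.

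Of the ligands and receptors that could act between glia, 6 of 26 and 8 of 28 were enriched by both pulldowns, against 12.8% of all genes. Of 26 measured ligands, 2 differed in the astrocyte direction, 7 in the microglial direction and 17 did not pass. Over all genes tested, 14.3% and 15.3% were called in these directions, together 29.6%. Apoe, the main lipoprotein of glia, had 170, 140, 171, 144 and 163 CPM in astrocyte bound libraries and 37.3 to 44.1 CPM in unbound ones. In the microglial line its bound libraries (36.9 to 68.4 CPM) overlapped the unbound ones (34.3 to 48.8 CPM), and the difference was 1.63 ± 0.17 (SE). Fgf1, a growth factor, was the other astrocyte ligand (1.67). The cytokine Il1a (-3.35) was microglial, at 2.01 to 3.17 CPM bound and at most 0.580 CPM in any astrocyte library, as was the chemokine Ccl2 (-3.36). Csf1 (-0.29) and Il34 (0.25), the ligands of Csf1r, and Il33 (0.88), Tgfb1 (-0.66) and Tgfb2 (0.35) did not pass, with adjusted p of 0.27, 0.72, 0.28, 0.36 and 0.16.

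Of 28 receptors, 5 differed in the astrocyte direction, 11 in the microglial direction and 12 did not pass, where 14.3% and 15.3% of all genes were called. Cx3cr1, whose locus carries the Cre in the microglial line, had 11.5, 7.87, 7.28 and 9.51 CPM in microglial bound and 0.926 to 2.08 CPM in unbound libraries. In the astrocyte line it had 2.73 to 3.80 CPM bound and 4.31 to 5.77 CPM unbound, so the bound level was the lower in astrocytes and the higher in microglia, and the difference was -3.17 ± 0.27 (SE). The TGF-beta receptor genes differed in size: Tgfbr2 (chromosome 9, 116084293 to 116175360) by -1.87 ± 0.32 and Tgfbr1 by -0.50 ± 0.15. Tgfbr2 had 11.6 to 15.0 CPM in microglial bound libraries and 2.17 to 5.32 CPM in unbound ones, while the astrocyte fractions overlapped at 3.32 to 7.26 and 3.92 to 7.54 CPM. The complement receptor C3ar1 (-2.48) was microglial and the growth factor receptor Fgfr3 (0.90) was higher in the astrocyte pulldown.

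Wnt signalling is named in the title of the study. Wnt ligands are secreted with the carrier Wls and act through Frizzled and Lrp receptors. Of 28 measured genes of the pathway, 2 differed in the astrocyte direction, 4 in the microglial direction and 22 did not pass, so 6 of 28 were called where 29.6% of all genes were; 9 were enriched by both pulldowns. Wnt5a had 27.2, 33.3, 23.9, 35.6 and 33.2 CPM in astrocyte bound against 10.6 to 16.3 unbound, and 17.2, 11.6, 15.9 and 16.4 CPM in microglial bound against 6.28 to 8.74 unbound. It was higher in the bound than the unbound libraries of both lines, by 1.15 and 0.93, and the difference of 0.22 ± 0.20 (SE) did not pass (adjusted p = 0.46). Wnt7a differed by 0.30 ± 0.20 (adjusted p = 0.28), Wnt7b by 0.03 ± 0.18 (adjusted p = 0.92) and Wls by 0.03 ± 0.29 (adjusted p = 0.95). Wls was called neither enriched nor depleted, at -0.18 in astrocytes and -0.21 in microglia. The genes that did differ were Fzd2 (1.08) and Notum (2.82), a Wnt-removing esterase, in the astrocyte direction. In the microglial direction were Wnt9a (-0.89), Lrp6 (-0.33) and the pair Reck (-1.34) and Adgra2 (-1.01), which form a co-receptor complex for Wnt7 ligands. The list's median of 0.02 turned to -0.16 when libraries were scaled by their totals, which moved the median of all genes from 0.06 to -0.11.

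**Figure D4:**
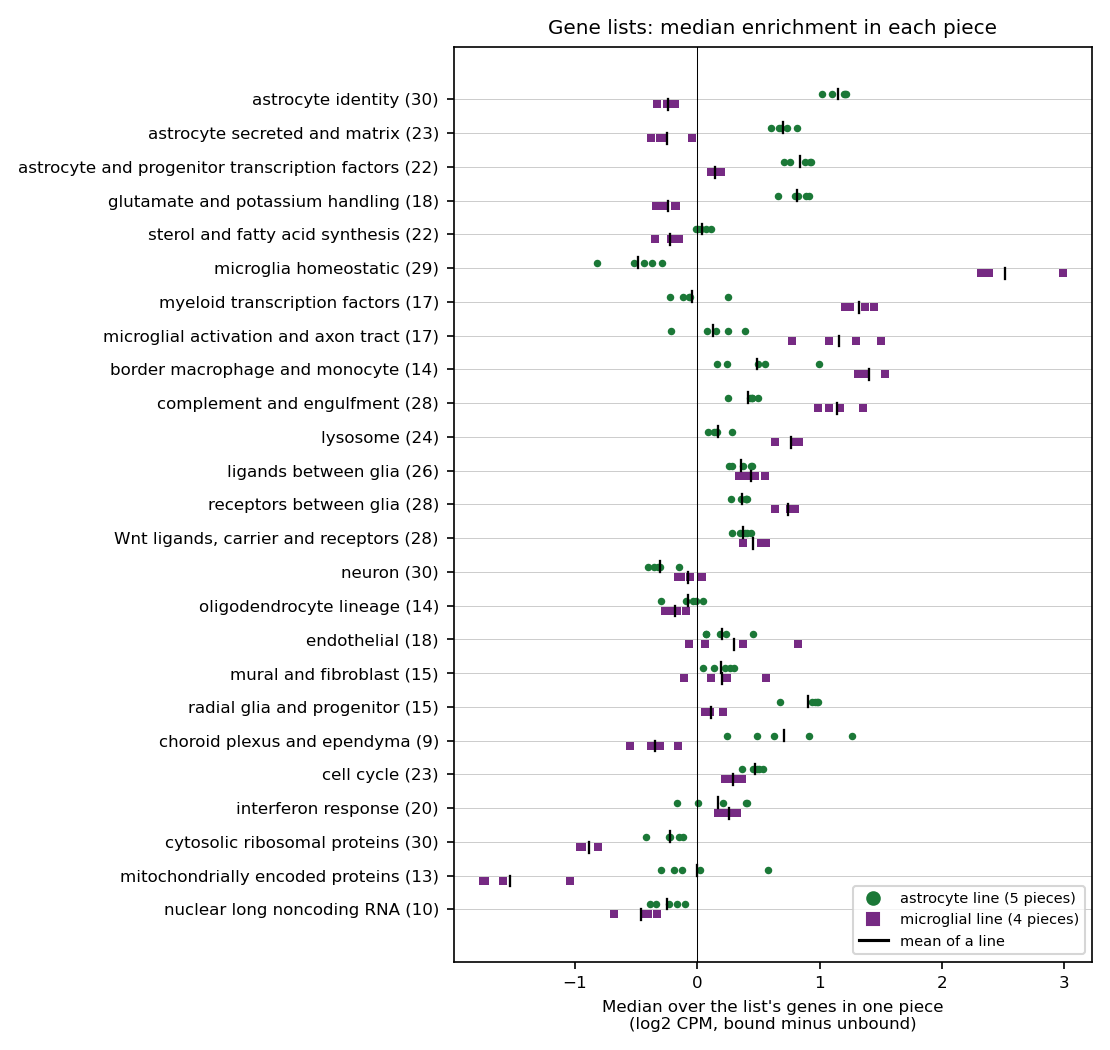
Median enrichment (log2 bound minus unbound) of 25 gene lists in each astrocyte piece (green) and microglial piece (purple), with the number of measured genes in brackets. The astrocyte identity list lies at 1.02 to 1.22 in astrocyte pieces and -0.33 to -0.19 in microglial ones, the homeostatic microglial list at -0.82 to -0.29 and 2.32 to 2.99, and the Wnt list overlaps.

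Among genes enriched by both pulldowns, chosen here by the smaller of their 2 enrichments, the strongest are not known as markers of glia. Yeats2, a histone reader, had 1827, 1639, 2037, 1730 and 2160 CPM in astrocyte bound libraries against 15.6 to 16.8 unbound, and 1049, 1341, 1195 and 1040 CPM in microglial bound against 12.1 to 14.8 unbound. Its enrichment was 6.85 and 6.41, larger than that of any of the 4 markers, and its pieces overlapped between the lines. Bahcc1 (5.92 and 6.64), Tnrc18 (5.00 and 6.87), Col4a2 (4.54 and 4.28) and Tcf20 (4.16 and 4.55) were next by the smaller of their enrichments. Tnrc18 had 1441 to 1902 CPM in astrocyte bound libraries and 2517 to 4853 in microglial bound ones, from 44.5 to 53.1 and 24.8 to 31.0 unbound, and it alone of these 5 differed by more than 1 (-1.87). Nefl, a neurofilament of neurons, had 2325 to 3817 CPM in astrocyte bound and 3966 to 6727 CPM in microglial bound libraries against 142 to 220 CPM unbound in both. Its difference of -0.56 had an adjusted p of 0.040 and was lost without several single libraries.

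The 5 genes most depleted by both pulldowns were the mitochondrial ribosomal RNAs mt-Rnr1 and mt-Rnr2, Vsnl1, Scg2 and Hsp90aa1. Vsnl1, a neuronal calcium sensor, had 393 to 480 CPM in astrocyte bound and 916 to 1083 CPM in unbound libraries, and 547 to 603 and 1088 to 1565 CPM in the microglial line. It was depleted by 1.19 and 1.29, with no called difference (0.10, adjusted p = 0.59). The neuropeptide precursor Scg2 (0.22) and the chaperone Hsp90aa1 (-0.04) likewise did not pass.

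Genes of other cell types were measured in both lines. Of 30 neuronal genes, 13 differed in the microglial direction, 2 in the astrocyte direction and 15 did not pass, with a median of -0.30. Their summed level was 15960 to 17550 CPM in astrocyte bound and 21150 to 25570 CPM in microglial bound libraries, against 17330 to 18810 and 19980 to 21930 unbound. The summed neuronal level was thus higher in every microglial than in every astrocyte bound library, and its part in the results was not tested. All genes tested also summed higher in microglial bound libraries, at 1046000 to 1123000 CPM against 881900 to 931000 CPM. Nefl, a member of the list, alone gave 3966 to 6727 CPM in microglial bound and 2325 to 3817 CPM in astrocyte bound libraries. Nefm (-1.34), Grin2b (-0.58), Lhx6 (-0.47) and Reln (-0.46) are examples. Of 14 oligodendrocyte lineage genes, 3 differed in the astrocyte direction, Olig1 (1.00), Cnp (0.61) and Olig2 (0.60). The other 11 did not pass, and the list's median was 0.03. In the oligodendrocyte, endothelial and mural lists 3 of 14, 3 of 18 and 1 of 15 genes were called, where 29.6% of all genes were. Choroid plexus and ependymal genes differed in the astrocyte direction in 4 of 9 cases, with the cilia genes Dynlrb2 (2.15), Rsph1 (1.86) and Ccdc153 (1.70) and their regulator Foxj1 (0.98). Their summed level ran from 36.6 to 920 CPM over astrocyte bound libraries and from 14.2 to 638 CPM over microglial bound ones, an uneven level among libraries of 1 group whose part in the result was not tested.

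Ribosomal protein and mitochondrially encoded genes differed as groups, and with them a gap between the tables. Of 30 cytosolic ribosomal protein genes, 28 differed in the astrocyte direction: all 30 were depleted in the microglial line (median -0.87) and 17 were called depleted in the astrocyte line (median -0.23). Rpl8 had 80.8 to 96.9 CPM in astrocyte bound and 64.8 to 85.0 CPM in unbound libraries, and 68.5 to 83.6 against 130 to 154 CPM in the microglial line. Rpl10a, the gene of the protein that is tagged in both lines, showed no enrichment in astrocytes (0.02) and depletion in microglia (-1.06). All the ribosomal genes of this kind have pseudogenes, and how reads were split among copies is not given in the sources used here. Of 13 mitochondrially encoded protein genes, 12 differed in the astrocyte direction, with a median of 1.83. Part of this list was nearly empty in the microglial table. There mt-Co2, mt-Co3, mt-Atp6, mt-Atp8, mt-Nd3 and mt-Nd4l had mean levels of at most 3.15 CPM in either fraction. For mt-Atp6, whose difference is that median, the means were 0.33 CPM bound and 1.36 unbound, against 205 and 225 in the astrocyte line. The remaining members were well counted in both tables and differed by 1.27 to 1.95. The transfer RNA mt-Tm had 30.5, 25.6, 31.5, 49.5 and 46.8 CPM in astrocyte bound and 0.724 to 2.24 CPM in astrocyte unbound libraries, but 0.0457 to 0.226 and 0.240 to 0.486 CPM in the microglial line. Its difference of 6.25 was the largest named, and mt-Tm, mt-Tr, mt-Nd3 and mt-Nd4l are nearly empty in the whole microglial table, unbound tissue included. For mt-Tm both a gap between the fractions of the astrocyte line (enrichment 4.87) and a gap between the tables enter that value, and the cause was not tested. The interferon-induced Bst2 shows a gap in the other direction, at 0.279 to 0.808 CPM in all astrocyte-line libraries and 6.88 to 13.8 CPM in all microglial-line ones.

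The gene classes also differed in make-up and in level. Among protein-coding genes, the median of the longest annotated transcript was 2381 bases in astrocyte-drawn genes and 4893 bases in microglia-drawn genes, against 3469 over all those tested and 4916 in genes enriched by both. Median GC content was 52.2%, 47.7%, 49.6% and 53.1% in that order. Median log2 CPM was 3.26, 5.56, 3.9 and 4.58 in the same order, and a call depends on counts, so the classes are not matched for level. Protein-coding genes were 87.8% of the astrocyte-drawn, 96% of the microglia-drawn and 74.8% of the tested genes. The PU.1 core was present in the promoter windows of 58 of 1178 matched microglia-drawn genes (4.92%), 23 of 851 astrocyte-drawn genes (2.7%), 444 of 13090 tested genes (3.39%) and 3.2% of all 32851 windows. Among microglia-drawn genes with a difference of at least 1 it was present in 34 of 215 (15.8%), with 1.29 windows per gene against 1.28 for all tested genes. TTGGCA was present in 16.1% of astrocyte-drawn, 13.4% of microglia-drawn and 14.2% of tested genes. The SOX core AACAATGG was rare in each class, at 0.47%, 1.02% and 0.772%. None of the 3 motifs contains another, and these shares are descriptions.

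The deprived hemisphere of both lines gave 18 libraries not used above, of which the microglial pieces 14L and 15L came from the same mice as 14R and 15R. The other microglial pieces were 17L and 17R, and 17R has the letter of the control side. The labels name no astrocyte animal, but same-numbered control and deprived astrocyte pieces match in sex and may come from the same pups. The deprived libraries are therefore not an independent set of animals. In them the difference was called for 3211 genes in the astrocyte direction (16.3% of 19735) and 2587 in the microglial direction (13.1%). Of 19317 genes tested in both sets, 783 were astrocyte-drawn in both, 71.2% of the control and 57% of the deprived list. By the same rule 7.05% of genes were astrocyte-drawn and 6.17% microglia-drawn in the deprived libraries. The microglia-drawn lists shared 829 genes, 55.6% of the control and 68.7% of the deprived list. Among genes with a called difference in the control libraries, none called in the astrocyte direction and 2 called in the microglial direction were called the opposite way in the deprived ones. Aldh1l1 differed by 2.20 in control and 2.04 in deprived libraries, Gfap by 1.41 and 1.54, Csf1r by -3.25 and -3.35 and C1qc by -3.85 and -3.89. Dbi was at 2.73 and 2.92, Fabp7 at 2.64 and 2.69, Ctss at -4.29 and -4.34 and Slc1a3 at 2.09 and 1.93. Other genes moved by about 1 or more: H2-Aa from 4.58 to 2.34, Cd52 from -3.60 to -4.62, Cd53 from -3.53 to -4.51, Trem2 from -2.37 to -3.33 and Adgra2 from -1.01 to 0.05. Bahcc1, Grin2b, Lhx6 and Wnt9a were no longer called. Other named genes that lost their call or changed sign there were Abcc9, Adgra2, Bst2, Ccna2, Ccnb1, Kdr, Mcm3, Mirg, mt-Nd3, mt-Tr, Nefl, Tcf20 and Tug1.

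**Figure D5:**
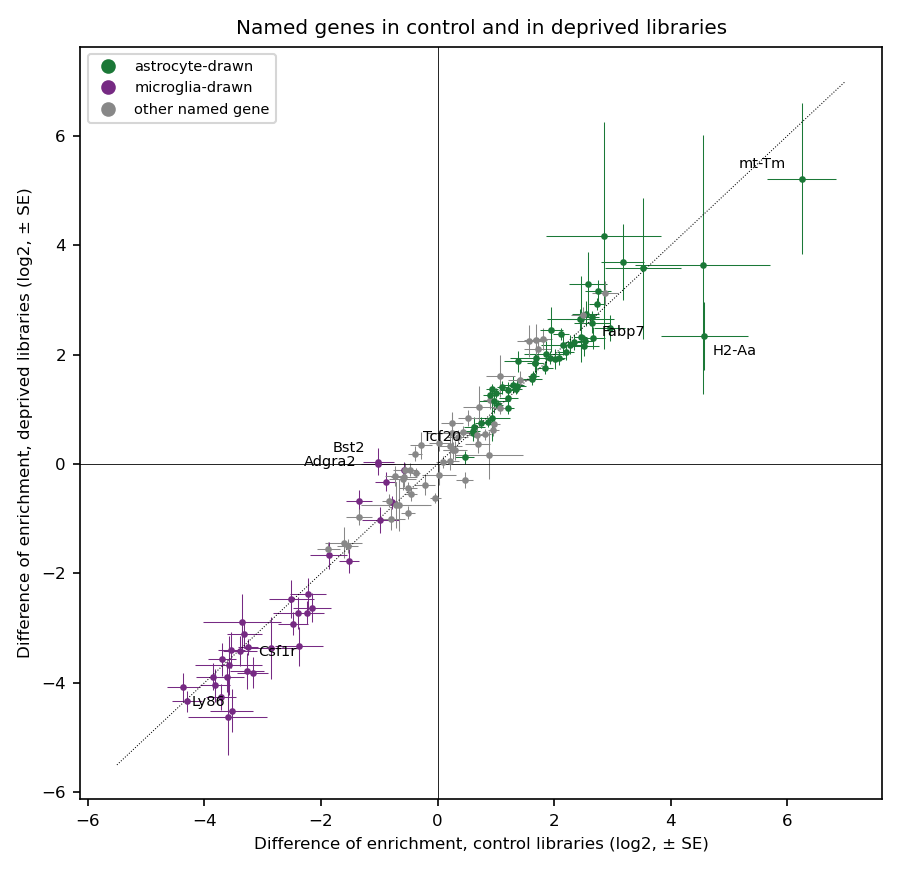
Difference of enrichment (astrocyte minus microglial, log2) in the deprived libraries against the control libraries for the 140 genes named by rule, with standard errors and a dotted line of equality. Ctss (-4.29 and -4.34) and Dbi (2.73 and 2.92) lie near the line, H2-Aa (4.58 and 2.34), Cd52 (-3.60 and -4.62) and mt-Tm (6.25 and 5.22) farther from it, and the mitochondrial features carry the widest errors.

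A second microglial line, Cx3cr1CreErt2/CreErt2(Litt), in which both Cx3cr1 alleles carry the Cre, was set against the same astrocyte libraries. The 2 results share those libraries, so only the values are given. The difference was called for 2548 and 2984 genes, and 1142 were astrocyte-drawn and 1493 microglia-drawn. Dbi differed by 2.76, Fabp7 by 2.51, Ctss by -4.18, Csf1r by -3.25 and C1qc by -3.69.

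Of the 140 genes named by rule, the difference was called for 123, and 100 of these kept their call in each of the 43 alternatives in which they were tested. Abcc9, Kdr, Ccna2 and Nefl lost theirs in 20 or more of them. The enrichments of the lines overlapped per piece in 20 of the 140, of which Slco1c1, Kdr, Mirg and Yeats2 had a called difference.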

How the data were processed

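RNA was sequenced from EGFP-L10a pulldowns and unbound fractions of barrel cortex, with libraries made from amplified complementary DNA (NuGEN Ovation V2 and Nextera XT, per the labels' protocols). The deposited values are raw counts per gene, 1 table per line. The tools named are the aligner HISAT2 (2.2.0), the counter featureCounts (2.0.0), Trim Galore (0.6.4) with cutadapt (2.9), and FastQC (0.11.9), and the build named is GRCm38 (mm10), per the submitters' processing notes. Whether strand was used is not given in the sources used here, so reads of 50 of the 140 named genes, whose exons overlap another gene, cannot be assigned with certainty.

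From the deposited counts, the astrocyte and heterozygous microglial tables (47971 and 45682 genes) were joined by identifier. In R 4.3.3, edgeR 4.0.16 fitted its quasi-likelihood model to the 18 control libraries, with TMM scaling, its default filter on low counts (20059 genes kept, 23843 dropped) and 1 term per group. Astrocyte enrichment, microglial enrichment and their difference were contrasts of that fit, with Benjamini-Hochberg adjustment over all genes and a threshold of 0.05. Genes that pass the filter in 1 table only are tested too. Per-piece enrichment is log2 CPM bound minus unbound with a prior count of 2, and CPM values use the TMM-scaled totals. Mean ± SD is over pieces, and where the labels name no animal the p-values measure only the spread between these samples. The main fit and the permutation test treated the 4 microglial pieces, from 3 mice, as separate units.

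Genes named by rule are the 15 largest differences in each drawn class with a mean log2 CPM of at least 3 in the bound libraries of that line, up to 4 called genes by p in each of 25 lists, a fixed set, and the 5 genes most enriched and the 5 most depleted in both lines; predicted genes were left out. Others named from the lists after their values were seen are Gjb6, Siglech, C1qa, Slc2a5, Npc1, Cd74, H2-Ab1, Ccl2, Notum and Lrp6. Members and lists were chosen with earlier results of these data known. Batf3, Ccl4, Il1b, Tnf, Ccr2, Ly6c2, Wnt10b, Opalin, Mobp and Tagln were listed but had too few counts to test.

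Bound and unbound libraries of a microglial piece share its name. Their deviations from the group means correlated by 0.163 to 0.332, and every piece correlated best with its own partner, so the pairing of the microglial pieces was accepted. Same-numbered astrocyte libraries correlated by 0.08 to 0.248, which is a hint only. No pair of libraries was identical. Alternatives were other scalings, filters, tools (DESeq2 1.42.0, limma 3.58.1), a replicate block, sex as a term, thinned microglial libraries, pieces left out, and the deprived and knockout libraries. The fitting script was tested on simulated data. Positions are from the GRCm38 annotation and promoters from RefSeq (GRCm38.p6), matched by symbol or synonym for 13090 of the 20059 genes.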

Additional observations from a re-analysis of the deposited data

Results flagged for a closer look

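Of 126 sets of 4 or 5 pieces examined for 1 value far from the rest, 8 were flagged, and chance flags about 1 in 20. Tmem119 enrichment was 0.79 in astrocyte piece AC_4, where the nearest other piece was at -0.02, from a gene with few counts in that line. Gja1 enrichment was 1.52 in AC_5 (nearest 1.04). Mertk enrichment was 0.25 in AC_1 (nearest 0.64) and 1.16 in microglial piece 15R (nearest 0.71). Tnrc18 enrichment was 7.61 in 15R (nearest 6.63). The median enrichment of the homeostatic microglial genes was 2.99 in 15R (nearest 2.38). The median of the complement and engulfment genes was 0.25 in AC_1 (nearest 0.43), and that of the radial glia and progenitor genes 0.68 in AC_3 (nearest 0.94).

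The 4 markers differed in enrichment between the lines by a test of the difference itself: Aldh1l1 by 2.20, Gfap by 1.41, Csf1r by -3.25 and C1qc by -3.85. The tag transcript, which the comparison does not use, was higher in bound than unbound microglial libraries by 3.07 on the log2 scale, at 5.6 ± 1.13 against 0.668 ± 0.211 CPM (SD, n = 4).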

How the results depend on the processing

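With libraries scaled by their totals the difference was called for 1867 genes in the astrocyte and 4796 in the microglial direction, and 2524 were microglia-drawn. Fitting control and deprived libraries together gave 5167 differences in the astrocyte direction, 2026 astrocyte-drawn genes and 3287 depleted in both lines. Asking for a difference of at least 1 left 633 astrocyte-drawn and 271 microglia-drawn genes. The share of calls in the astrocyte direction was 55.4% in deprived libraries and 58.9% in all. Without the filter the median difference was 0.37 over 42920 genes. DESeq2 called 2993 and 3222 genes and limma-voom 2916 and 3189.

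With the replicate block, the difference was called for 3420 and 3773 genes, and 1320 and 1758 were drawn; the block changed no count by more than 1.5 times. Leaving out each of 18 libraries and 9 pieces gave 2412 to 2934 and 2629 to 3098 genes with a difference, 3944 to 4861 enriched and 3062 to 3816 depleted in astrocytes, 4284 to 5007 enriched and 4233 to 4873 depleted in microglia, 909 to 1157 astrocyte-drawn, 1224 to 1570 microglia-drawn, 2265 to 2550 enriched in both and 1850 to 2205 depleted in both.

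Called differences that changed sign were those of Adgra2 (0.0452), Mcm3 (-0.29), Bst2 (0.0007) and Tcf20 (0.19) in deprived libraries, and Tcf20 (0.20) with the knockout line; the cause was not tested. Of 17 named genes with no call, some near 0 changed sign too, such as Csf1 (from -0.29 to 0.35) and Wls (0.03 to -0.19) in deprived libraries and Hsp90aa1 (-0.04 to 0.0012) without 21L, and 6 gained a call under some alternative. Scaled by totals, the medians of the oligodendrocyte, cell cycle and interferon lists went from 0.03, 0.15 and 0.10 to -0.14, -0.02 and -0.07. Low counts limit Cd52, H2-Aa, Il1a and the mitochondrial transfer RNAs, whose errors are the widest.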
